A study of Homo sapiens with 2 samples.

Results

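The peroxisome proliferator-activated receptors and their PGC-1 coactivators were examined in HepG2 cells, an established human hepatoma line, with and without an aqueous extract of Moringa oleifera seeds (MOES). The 5 genes Ppara, Ppard, Pparg, Ppargc1a and Ppargc1b were taken by symbol from the 84 genes of an adipogenesis quantitative PCR panel. The control group was untreated HepG2 and the other group was HepG2 exposed to MOES for 72 h after 24 h of adhesion, with 1 sample in each group and no other agent in either. The treated sample is titled with a dose of 5 mg/mL, while the labels' account of the array gives 2.5 mg/mL, and the deposited tables do not settle which dose they hold. With 1 sample per group there is no replicate error and no p-value, so every difference below compares these particular samples.

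PPARs are nuclear receptors that bind DNA together with the retinoid X receptor and are switched on by fatty acids and their derivatives. PPARα, encoded by Ppara, is the form that drives fatty acid oxidation and ketone production in liver, PPARγ, encoded by Pparg, is the master regulator of fat cell formation and lipid storage, and PPARδ, encoded by Ppard, is expressed in most tissues and favours fat burning, in muscle above all. PGC-1α and PGC-1β, encoded by Ppargc1a and Ppargc1b, bind nuclear receptors and other factors without touching DNA themselves. PGC-1α is induced in liver by fasting, when it turns on gluconeogenesis and mitochondrial oxidation, and PGC-1β is linked to mitochondrial genes and to lipid synthesis together with SREBP.

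Values are given as the threshold cycle (Ct), the PCR cycle at which a well's signal passes a threshold. An earlier Ct means more template, and 1 cycle is a factor of 2. The delta Ct is the Ct minus the mean of the reference genes B2m, Gusb and Hsp90ab1, and the level is 2 to the power of minus delta Ct. No Ct exceeded 35, which was read as a ceiling, and 25 of the 84 genes were there in the MOES sample against 6 in the control. All 59 MOES gene values under 35 were whole numbers, so a step of 1 cycle is their precision, and 21 of them were at 32. The 3 repeat wells that check reverse transcription read 31.41, 32.01 and 32.1 in the untreated sample, and all of them were at 35 in MOES. The untreated readings gave a well-to-well SD of 0.530 cycles for a difference, which covers repeat wells on a plate and no biological variation. The positive PCR control wells were at the ceiling of 35 in both samples, so they gave no check that the PCR ran alike in them. Of the reference wells, B2m was at 23.82 in both samples, Gusb went from 25.65 to 25.66 and Hsp90ab1 from 25.28 to 25.3. These 3 wells carried decimals in MOES, unlike the gene wells, and differed between the samples by far less than the well-to-well SD. Gapdh went from 28.46 to 35. What part these wells have in the differences below was not tested.

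The gene symbols are those of the deposited tables, and all 5 match a current human symbol when case is ignored. So do 83 of the 84 panel genes in all, and a match without case cannot tell a human assay from a mouse one. The labels name a human array, but the deposited annotation carries mouse clone aliases ending in Rik for 15 of the 62 genes it lists, 3 of the family among them. Which gene a well stands for is therefore taken from the tables as they are. The cell type was hard to check on this panel. Agt, which encodes the angiotensinogen that hepatocytes secrete, had a late Ct of 33.91 in untreated cells, and Nr0b2, which encodes the liver repressor SHP, had 28.76. Of 6 fat cell genes in the same sample, 4 were earlier than Nr0b2, namely Adig at 25.1, Cfd at 26.24, Adipoq at 27.37 and Retn at 27.61, while Fabp4 at 29.9 and Lep at 33.89 were later.

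To set the genes in their genomic context, windows of 300 bases around human transcription starts were searched for short motifs on both strands. RefSeq lists 12 such windows for the family on GRCh38.p14, and all 5 genes have at least 1. The letters AGGTCA, which the PPAR and retinoid X receptor pair recognises as a repeat, occurred in 3 of the 6 Pparg windows and in no window of the other 4 genes, while 13.8% of all 35116 windows hold them. Of those 3 windows, 2 overlap by 290 bases and share 1 match. The full repeat, AGGTCA, any base and AGGTCA again, was in none of the 12 and in 0.0228% of all windows. The letters TGACG, the core of the element bound by CREB, occurred in the Ppard window and in 1 of the 2 Ppargc1a windows, with 24.6% of all windows holding them. The complete element TGACGTCA, which contains that core, was in none of the 12 and in 1.85% of all windows. The E-box CACGTG was found in 1 window, where it overlaps the TGACG of Ppargc1a, and 7.26% of all windows have it. The remaining 7 windows of the family, both of Ppara and that of Ppargc1b among them, held none of these letters. Windows are shown for the gene that was higher in MOES, the gene with the earliest Ct and the gene with the lowest fold change. Matches are in capitals. For Pparg and Ppargc1a, which have more than 1 window, a window that held a match was picked. The windows shown lie at chr6:35342308-35342607 on the + strand, at chr3:12288810-12289109 on the + strand and at chr4:24472856-24473155 on the - strand, in the same order. The array does not tell which start a transcript used, and a match is no evidence of binding.
Ppard: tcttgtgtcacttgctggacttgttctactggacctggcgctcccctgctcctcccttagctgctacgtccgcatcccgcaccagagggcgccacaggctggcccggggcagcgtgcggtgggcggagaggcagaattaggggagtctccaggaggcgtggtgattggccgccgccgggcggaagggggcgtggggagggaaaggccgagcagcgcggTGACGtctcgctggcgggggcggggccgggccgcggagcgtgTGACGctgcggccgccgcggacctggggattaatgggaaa
Pparg: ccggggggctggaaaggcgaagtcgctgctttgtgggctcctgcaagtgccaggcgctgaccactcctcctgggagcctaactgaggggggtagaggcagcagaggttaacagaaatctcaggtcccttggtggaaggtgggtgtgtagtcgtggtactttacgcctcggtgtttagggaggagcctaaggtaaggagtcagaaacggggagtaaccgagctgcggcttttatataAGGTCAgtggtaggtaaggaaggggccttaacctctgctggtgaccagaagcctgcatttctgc
Ppargc1a: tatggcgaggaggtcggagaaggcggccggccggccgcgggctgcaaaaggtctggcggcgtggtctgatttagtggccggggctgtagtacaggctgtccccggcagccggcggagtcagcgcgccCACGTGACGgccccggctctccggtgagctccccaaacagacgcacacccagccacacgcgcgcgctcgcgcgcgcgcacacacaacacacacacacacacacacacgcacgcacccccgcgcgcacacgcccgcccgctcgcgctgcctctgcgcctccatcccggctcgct

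Of the receptors, Pparg and Ppara were far lower in the MOES sample and Ppard was slightly higher. Pparg went from a Ct of 19.82 to 25 in MOES. It was the earliest of the 84 genes in the control and still the second earliest in MOES. Its level relative to the reference genes went from 34.1 to 0.950, which is 36.0-fold lower, or -5.17 on the log2 scale. In the control it was the only gene of the panel with an earlier Ct than B2m, so the template for this fat cell receptor exceeded that of a housekeeping gene if both assays amplify alike.

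Ppara, the receptor of hepatic fatty acid oxidation, went from a Ct of 28.51 to 33 in MOES. Its level went from 0.0829 to 0.00371, a difference of -4.48 on the log2 scale, or 22.3-fold lower. The MOES well remained 2 cycles under the ceiling, so this difference is a measured one and not a bound.

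Ppard ran the other way. Its Ct of 32.78 in the control compares with 32 in MOES, and its level went from 0.00430 to 0.00743. The fold change was 1.73, or 0.79 on the log2 scale, just past the study's upper limit of 1.5. That difference is less than 1 cycle and is 1.49 times the well-to-well SD. The well that detects genomic DNA, MGDC, had Ct values of 29.9 and 29.56, earlier than Ppard and Ppargc1b in both samples. In MOES it was also earlier than Ppara and Ppargc1a, so 4 of the 5 genes were later than this well there and 2 in the control. MGDC is the name that mouse versions of such arrays use for the well. Whether genomic DNA adds to the signal of these genes was not tested. From its late start in the control, Ppard could have shown a decrease of at most 2.22 cycles before reaching the ceiling.

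Both coactivators were lower in MOES. Ppargc1a was the third earliest gene of the untreated sample with a Ct of 24.47 and the 21st earliest in MOES with 30. Its level went from 1.36 to 0.0297, which is 45.9-fold lower, or -5.52 on the log2 scale, the largest difference of the family. Ppargc1b went from a Ct of 31.54 to the ceiling of 35. Its level was at least 10.9-fold lower, a log2 fold change of -3.45 or less. A difference beyond 3.46 cycles could not have been seen for Ppargc1b, so its true size against Ppargc1a is unknown.

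**Figure D1:**
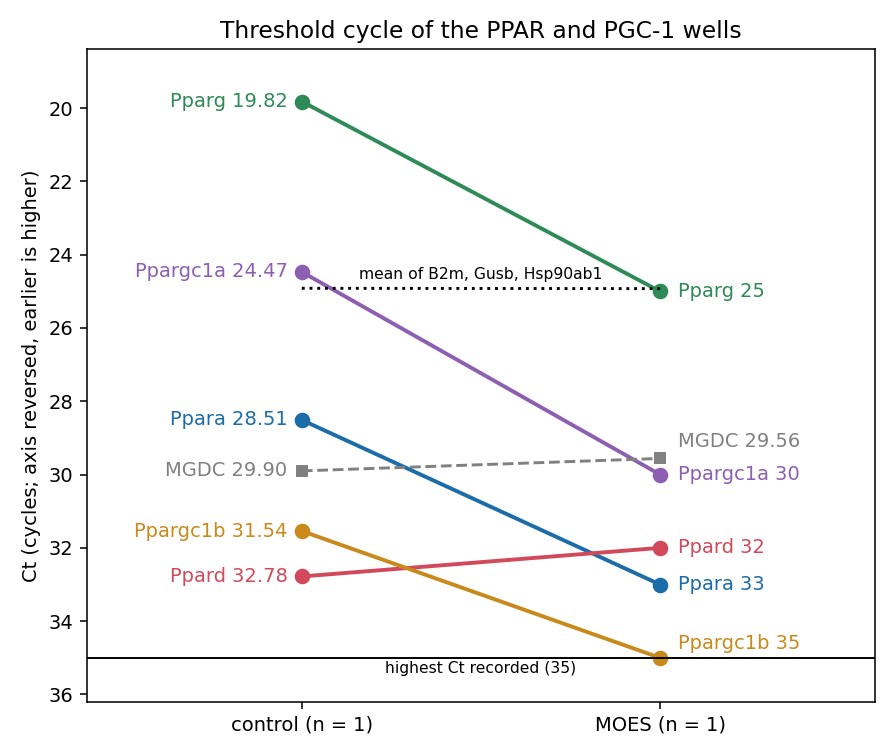
Ct of the 5 genes in the control and the MOES sample, 1 well value per sample, with the axis reversed so that more template lies higher. Pparg, Ppargc1a, Ppara and Ppargc1b drop by 3.46 cycles or more, Ppargc1b to the ceiling of 35, while Ppard moves from 32.78 to 32, and the dotted reference mean stays level while the dashed genomic DNA well (MGDC) goes from 29.9 to 29.56.

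By the study's limits of below 0.5 and above 1.5, 4 of the 5 genes were below and 1 was above. Over the whole panel 67.9% of the genes were below 0.5 and 8.33% were above 1.5, so with these reference genes the number of family members below the limit is close to that of the panel at large. That reading depends on the scaling. With the mean of all 5 reference genes, or with the median Ct of the gene wells, 28 of the 84 genes were below and 26 above, and with Actb alone 37 and 21, while the family's computed count stayed at 4 below and 1 above. Most of the family's differences were larger than that of the median gene. The family's median log2 fold change was -4.48, against -1.75 for the 79 other genes and -1.78 for all 84. Since Ppargc1b is known only as a bound, the family median could lie lower, though not under -5.17. The median of all 84 is not exact either, as it includes 19 upper bounds and 6 genes at the ceiling in both samples. For the 59 genes under the ceiling in both samples it was -1.65. Room for a fall before the ceiling also differed. Pparg, Ppargc1a and Ppara started earlier than the panel's median control Ct of 30.49, and Ppargc1b and Ppard later. What part this room has in the sizes was not tested. Counted from the lowest fold change of the 84 genes, Ppargc1a was the 6th, Pparg the 7th, Ppara the 10th and Ppargc1b the 14th. Ppard was the 79th by the same count. The places are not fixed, because 19 of the 84 genes, Ppargc1b, Sirt3 and Fasn among them, are known only as upper bounds. They describe the samples and carry no test.

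**Figure D2:**
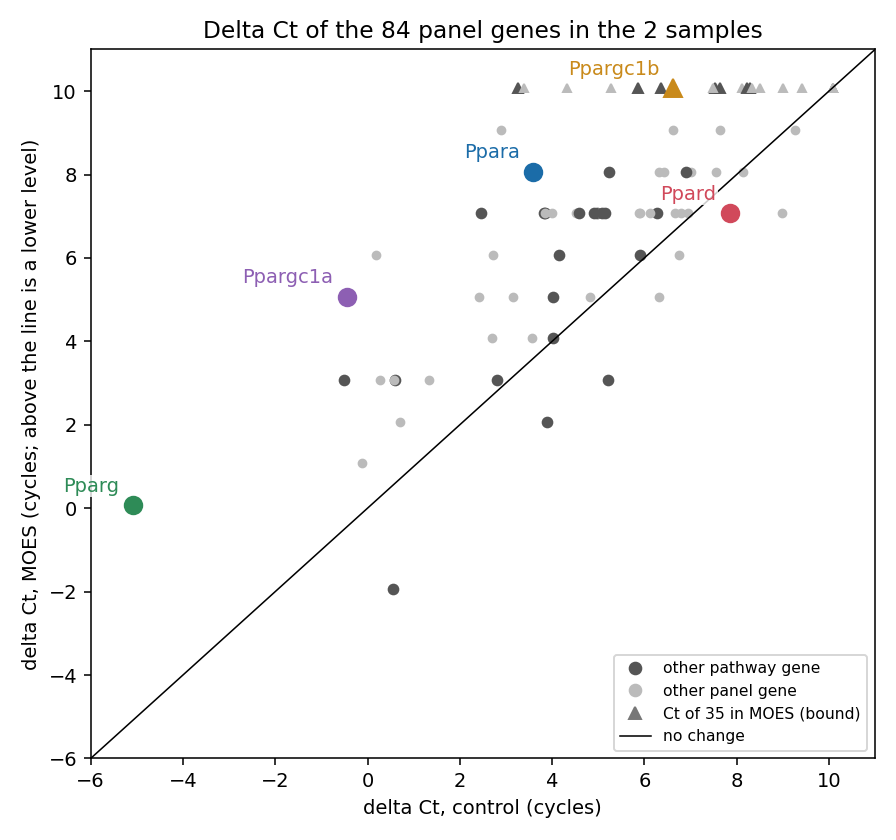
Delta Ct of the 84 genes in the control (horizontal) and the MOES sample (vertical), in cycles, with points above the diagonal at a lower level in MOES and triangles at a Ct of 35 in MOES. Pparg, Ppargc1a and Ppara have log2 fold changes of -5.17, -5.52 and -4.48, and Ppard, at 0.79, sits on the other side of the line.

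Differences between members do not depend on the reference genes, because a reference adds the same amount to every gene of a sample. The 3 members measured under the ceiling that were lower in MOES changed by similar amounts, within a span of 1.04 cycles. Pparg and Ppargc1a differed in their change by 0.35 cycles, under the well-to-well SD. Ppara and Pparg differed by 0.69 cycles, less than the precision of 1 cycle. The SD is that of a difference between single wells. Each of these gaps sets one such difference against another, which has a wider spread. Ppard stood apart from each of them. The ratio of Ppard to Ppara template was 38.6-fold higher in the MOES sample, that of Ppard to Pparg 62.2-fold higher and that of Ppard to Ppargc1a 79.3-fold higher. The ratio of Ppard to Ppargc1b was at least 18.9-fold higher. On the log2 scale Ppard lay at least 5.62 above the median of the other 4 genes, a minimum because Ppargc1b enters that median as a bound.

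The order of the members by Ct differed between the samples accordingly. In the control it ran Pparg, Ppargc1a, Ppara, Ppargc1b and Ppard, with gaps of 4.65, 4.04, 3.03 and 1.24 cycles. In MOES it ran Pparg, Ppargc1a, Ppard, Ppara and Ppargc1b, with gaps of 5, 2, 1 and 2 cycles. Ppard thus went from last to the middle. Its gap of 1 cycle to Ppara in MOES was 1.89 times the well-to-well SD and a single step of the recorded values, so the order of these neighbours is uncertain. The receptor of liver fat oxidation had 19.3 times the template of Ppard in the control, going by Ct alone. The assays' efficiencies are unknown, so such a comparison between genes is approximate, and no transcript length enters it. The family spanned 12.96 cycles in the control and at least 10 in MOES, where Ppargc1b was at the ceiling, so whether the span differed is not known.

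The 5 genes sit side by side on the plate, in wells E07 to E11. The 7 other genes of that row had a median log2 fold change of -1.93, with 6 of them below 0.5. The medians of the other rows ran from -2.57 to -0.025, so the neighbours of the family on the plate were within the range of the rest.

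The genes with the most similar pair of values, by the distance between delta Ct in the 2 samples, were few for the early members. The nearest to Ppara were Cebpb, which encodes a C/EBP factor, at 1.03 cycles and Nr0b2 at 1.03 cycles. Ppard was nearest to Wnt5a, a WNT ligand, at 0.92 cycles and to Runx1t1, a corepressor, at 1.04 cycles, with log2 fold changes of -0.13 and 0.07. For Ppargc1a they were Adig at 1.18 cycles and Rxra at 2.00 cycles. Ppargc1b was nearest to Lmna, the gene of lamin A, at 1.00 cycle and to Foxc2, a forkhead factor, at 1.44 cycles. Pparg had no close neighbour, since Cdkn1a, which encodes the cell cycle inhibitor p21, was 5.09 cycles away and Rxra 5.48. The measure rests on 2 samples.

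The other genes of the pathway were read in 6 lists with 28 genes in all, Srebf1 being in 2 of them. Of the 28 genes, 21 (75.0%) were below 0.5 and 3 (10.7%) above 1.5, against 67.9% and 8.33% over the panel. Their median log2 fold change was -2.05. Since 7 of them are known only as a bound, this median and those of the lists holding them could lie lower. Counts and medians of the lists moved with the scaling, as the panel's did, and the values with the mean of all 5 reference genes are given beside them as the other scaling.

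Among the partner and the coregulators, 5 of 6 genes were below 0.5 and 0 above 1.5, with a median of -1.86. With the other scaling 2 were below and 1 above, with a median of -0.37. Rxra, which encodes the partner that every PPAR needs on DNA, went from a Ct of 24.4 to 28, or -3.59 on the log2 scale. Nr0b2, whose product SHP represses nuclear receptors, was 9.38-fold lower. Ncoa2, a coactivator of the p160 family, was 3.81-fold lower, and Nrf1, a factor that PGC-1 coactivators use to build mitochondria, was at least 3.46-fold lower.

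The regulators of the PGC-1 coactivators had 3 of 4 genes below 0.5 and 1 above 1.5, and a median of -2.0. With the other scaling 0 were below and 1 above, with a median of -0.51. Creb1, whose product switches on Ppargc1a transcription in the fasted liver, went from a Ct of 28.82 to 27 and was 3.56-fold higher in MOES. Its direction was thus opposite to that of Ppargc1a. Mapk14, the p38α kinase that activates PGC-1α, was 5.58-fold lower and Foxo1, a transcription factor that PGC-1α coactivates, was 4.47-fold lower. Sirt1, the deacetylase of PGC-1α, was at least 3.58-fold lower.

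Of the activators of Pparg, 4 of 6 were below 0.5 and 1 was above 1.5, with a median of -2.28. With the other scaling 3 were below and 2 above, with a median of -0.78. Egr2, an early factor of fat cell differentiation, went from a Ct of 28.18 to 35 and was at least 112-fold lower. Cebpb was 9.51-fold lower, and Srebf1, a driver of lipid synthesis, was at least 5.86-fold lower. Cebpd, which acts early in the cascade that induces Pparg, went from 25.47 to 23 and was 5.58-fold higher, again opposite to Pparg. The repressors of Pparg had 2 of 4 genes below 0.5 and 0 above 1.5, with a median of -0.62. This direction turned with the other scaling, to 1 below and 2 above with a median of 0.88, and the median was 0.33 with Actb alone. Gata3 was 7.11-fold lower and Klf2 2.08-fold lower. Gata2 and Ddit3 had log2 fold changes of -0.17 and -0.06.

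The targets of PPARs and PGC-1 had 6 of 6 genes below 0.5, with a median of -2.47 and a range from -4.62 to -1.92. Sirt3 and Nr1h3 enter as bounds, so the median and the lower end of the range could lie lower. In MOES all 6 had a later Ct than the genomic DNA well MGDC at 29.56. Whether genomic DNA adds to their signal was not tested. With the other scaling 2 were below and 0 above, with a median of -0.97. Adipoq, the gene of adiponectin and a PPARγ target, went from a Ct of 27.37 to 32 and was 24.6-fold lower. Sirt3, the mitochondrial deacetylase induced by PGC-1α, was at least 18.5-fold lower. Ucp1, the uncoupling protein of brown fat, was 5.62-fold lower and Nr1h3, which encodes the sterol receptor LXRα, was at least 5.43-fold lower.

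**Figure D3:**
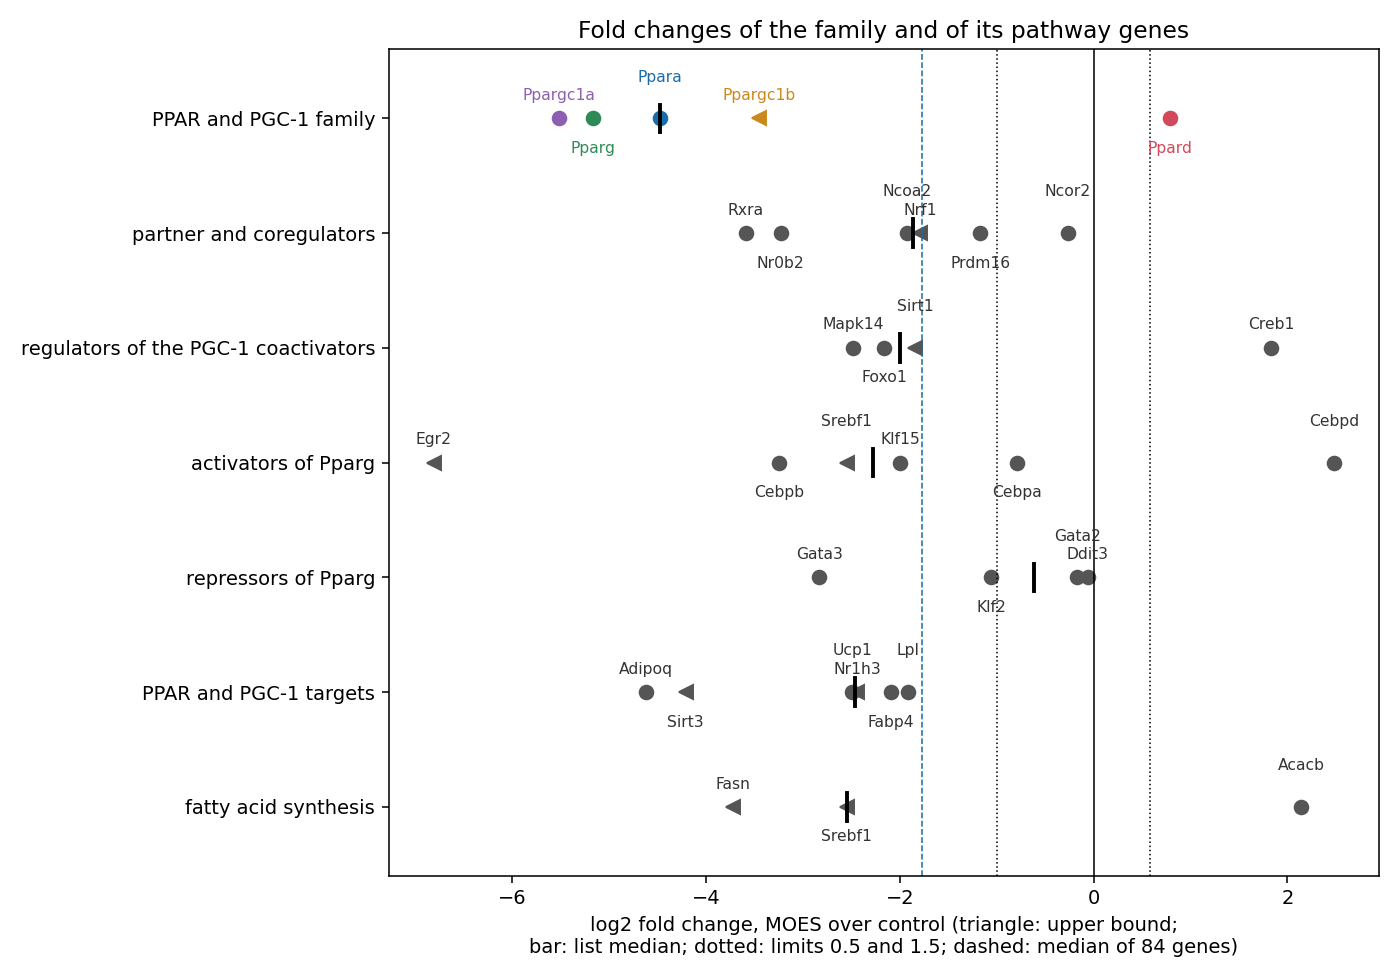
Log2 fold change of MOES over control for the family and for the 6 pathway lists, 1 point per gene, with triangles for upper bounds, short bars for list medians, dotted lines at the limits and a dashed line at the median of the 84 genes (-1.78). Creb1, Cebpd and Acacb are the pathway genes to the right of the upper limit, as is Ppard in the family, whose other 4 members lie left of the dashed line.

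For fatty acid oxidation in liver, the panel offers the regulators and not the pathway itself. Of 5 mitochondrial enzymes looked for (Cpt1a, Cpt2, Acadm, Acadvl and Hadha), 0 were on the panel. Acacb, which encodes the carboxylase whose product malonyl-CoA holds back the entry of fatty acids into mitochondria, went from a Ct of 30.13 to 28 and was 4.41-fold higher. In the list of fatty acid synthesis, 2 of 3 genes were below 0.5, Fasn, the fatty acid synthase, at least 13.2-fold lower and Srebf1 as given above. Acacb was counted as the third, although the role given for it here is in oxidation. The median of this list was -2.55, and with the other scaling it was -1.06, with 2 still below. Transcripts alone were measured here, and no oxidation rate.

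The choice of reference genes decided the direction of the lower members. With Gapdh as the only reference, Pparg, Ppargc1a, Ppara and Ppard were above 1.5, with log2 fold changes of 1.36 for Pparg, 1.01 for Ppargc1a, 2.05 for Ppara and 7.32 for Ppard. Gapdh was at the ceiling in MOES, so these values are minimums, and Ppargc1b, at the ceiling too, then has no known direction. With Actb, with the mean of all 5 reference genes or with the median Ct of the gene wells, the computed values of Pparg, Ppargc1a, Ppara and Ppargc1b were still below 0.5 and that of Ppard above 1.5. Actb was at 34.05 in the control and 35 in MOES, so the values that include it are minimums as well, and Ppargc1b then has no bound on either side. Ppard went under no change, to -0.21, when every MOES gene well was taken as 1 cycle later, and to 0.01 with Ct values above 32 set to 32.

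**Figure D4:**
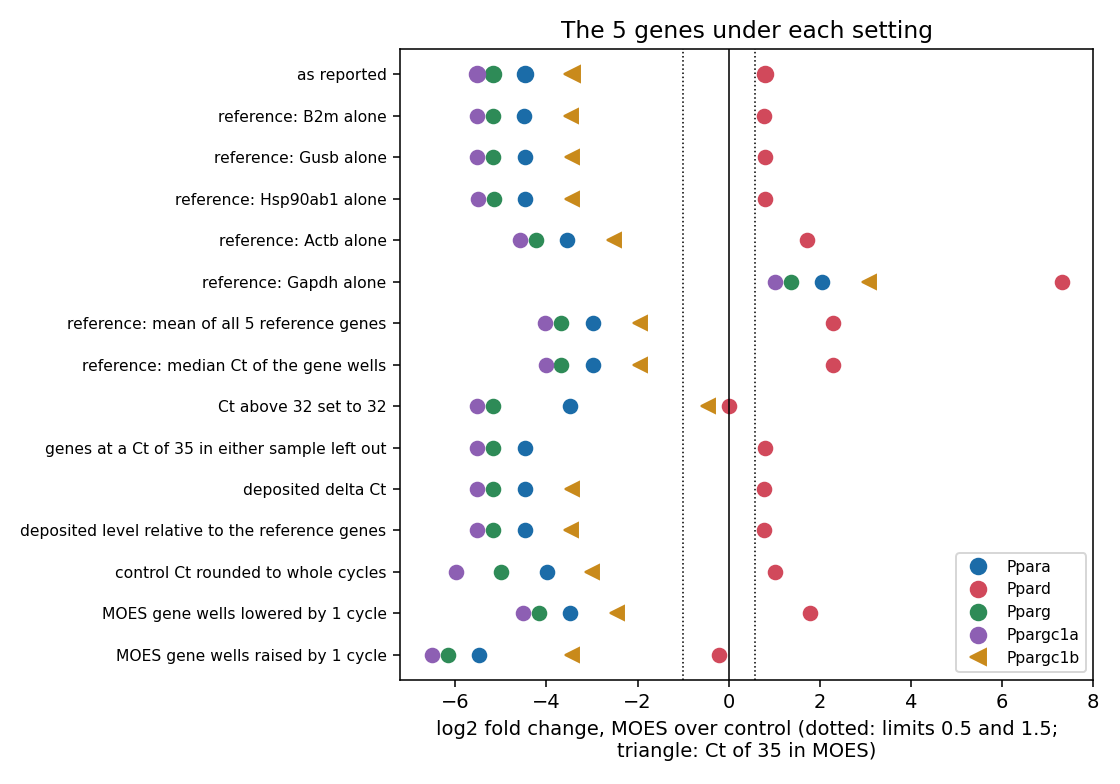
Log2 fold change of the 5 genes under the main setting and 14 alternatives, with dotted lines at the limits of 0.5 and 1.5 and a triangle for Ppargc1b, which was at a Ct of 35 in MOES. The spacing between the genes is the same for every reference, and with Gapdh alone all points lie right of the upper limit, from Ppargc1a at 1.01 to Ppard at 7.32, though Ppargc1b and Gapdh were both at the ceiling and the direction of Ppargc1b there is not known.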

How the data were processed

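RNA of HepG2 cells was measured by SYBR Green PCR on an array of 96 wells, and the manufacturer's web software made the values, per the labels. The authors deposited Ct and delta Ct, both headed as averages with empty SD columns, the level relative to the reference genes as a ratio, and a table of fold changes. The last holds the authors' own comparison, and only its gene aliases were read. Of 31 subsets of the reference genes, B2m, Gusb and Hsp90ab1 gave the deposited delta Ct, to within 0.00569 cycles.

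The log2 fold change was the delta Ct of the control minus that of MOES, with the study's limits of 1.5 and 0.5. Both wells at 35 were left at no change. With 1 sample per group no test was made. The genes named are the 5 members, up to 4 genes per pathway list by size of change plus Rxra and Acacb, the 2 nearest genes of each member, and control and marker wells. The members, lists and 17 alternatives were chosen with earlier results of these data known. The enzymes of oxidation and the motifs were looked up afterwards. Calculations were tested on simulated data. Promoters came from RefSeq. Python 3.11.15, numpy 2.4.6 and matplotlib 3.10.9 were used.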

Additional observations from a re-analysis of the deposited data

How the results depend on the processing

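No paired analysis was possible because the groups held 1 sample apiece. All 17 alternatives were run. B2m, Gusb or Hsp90ab1 alone, the deposited delta Ct and level, the control Ct rounded to whole cycles, limits of 1.5 and its inverse, and leaving out genes at 35 left 4 or, without Ppargc1b, 3 members below 0.5, 1 above 1.5 and the family median within 0.530 cycles. The family median of -4.48 was -3.54 with Actb alone, -2.99 with the mean of all 5 reference genes, -2.98 with the median Ct of the gene wells, and 2.05 with Gapdh alone. It was -3.48 with Ct above 32 set to 32 and with MOES gene wells lowered by 1 cycle, and -5.48 with them raised by 1 cycle. With Gapdh alone the computed values put 0 members below and 5 above, with Ppara at 2.05, Pparg at 1.36 and Ppargc1a at 1.01, but the 3.08 of Ppargc1b sets 2 ceiling wells against each other and gives no direction, so 4 can be called. There the list medians were 4.67 for the partner and coregulators, 4.53 for the PGC-1 regulators, 4.26 for the activators of Pparg, 4.07 for the targets, 3.98 for fatty acid synthesis and 5.92 for the repressors of Pparg, whose median was also above 0 with the median Ct of the gene wells (0.89) and with MOES wells lowered by 1 cycle (0.39), and the panel median was 4.76. A reference moves all genes by the same amount by construction. The median of fatty acid synthesis was 0.01 with Ct above 32 set to 32 and 2.14 without genes at 35, where Acacb alone was left. The count above the upper limit was 0 with Ct above 32 set to 32, with MOES wells raised by 1 cycle (Ppard at -0.21), with an upper limit of 2, and with limits of 2 well-to-well SDs. The distance of Ppard from the median of the others, 5.62 or more, was computed as 4.34 with Ct above 32 set to 32. The number of samples and the whole-cycle MOES values limit all of these.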
